A study of Drosophila melanogaster with 3 samples.

Results

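The ORC2 peaks described here are those on chromosome 4, on the 6 named Het scaffolds, assembled from heterochromatin (YHet, XHet, 3RHet, 3LHet, 2RHet, 2LHet), and on U, the unplaced sequence of the Drosophila melanogaster genome. They were chosen by chromosome name alone, without regard to score or width, and peaks of both libraries that overlapped by at least 1 bp were joined into 1 site. This gave 288 of the 8494 peaks of replicate 1 and 148 of the 5905 peaks of replicate 2, which form 367 of 9799 sites. Of these sites, 105 lay on chromosome 4, 155 on the named Het scaffolds and 107 on U. The peaks come from chromatin immunoprecipitation and sequencing (ChIP-seq) of ORC2 in ML-DmBG3-c2 (BG3) cells, a line from the larval central nervous system with the genotype y v f mal, grown as asynchronous cultures; the labels give the sex as unknown. The ORC2 group has 2 libraries, both made with a crude rabbit serum raised against the full-length protein, and 1 further library is of input DNA and has no peak list here. The libraries bear different extraction numbers, and nothing says that they come from separate cultures, so the spread between them may be technical. Coordinates are those of FlyBase release 5, counted from 1; no sequence or gene annotation of that release was used, so the genes at these sites are not given.

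ORC2 belongs to the origin recognition complex, which marks potential replication origins and loads the MCM helicase there before S phase. Chromosome 4 of Drosophila is a very small chromosome in which active genes are set among repeats and heterochromatin proteins such as HP1. The Het scaffolds are assembled pieces of heterochromatin near the centromeres and of the Y, and U joins pieces that had no place in the assembly, so that a distance along U need not be a distance along a chromosome. Heterochromatin is known for late replication and for repeats to which short reads are hard to assign. How much of these sequences reads could be assigned to was not analysed here.

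Each peak has a width and a score, the authors' own value, whose quantity the files do not name. Equal scores recurred within a chromosome but hardly between chromosomes. On the large arms 2L, 2R, 3L, 3R and X, 61.1 to 75.8% of the replicate 1 peaks had exactly the score of another peak of the same arm, and 0.210 to 0.848% had a score also found elsewhere in the list. In replicate 2 these shares were 43.7 to 65.8% and 0.269 to 4.99%. On chromosome 4, 21 of 82 replicate 1 peaks and 4 of 63 replicate 2 peaks repeated a score of that chromosome. No score from chromosome 4, a Het scaffold or U was found anywhere else in its list. Whether scores of different chromosomes share 1 scale was not tested, so scores are read here mainly within a chromosome, and an order across scaffolds only lists the values. Read counts are not given, so depth is unknown. Each bracketed range after a percentage is a 95% exact (Clopper-Pearson) interval, which covers counting error alone and takes peaks to be independent. Differences between chromosomes were not tested, because peaks of 1 list are not replicates and a comparison over 2 libraries would have little power.

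The share of peaks found by both libraries fell from chromosome 4 over the Het scaffolds to U. Over both whole lists, 52.9% of replicate 1 peaks and 77.6% of replicate 2 peaks overlapped a peak of the other library, and 45.7% of all sites were called in both. On chromosome 4, 40 of 82 replicate 1 peaks were shared in this sense, or 48.8% (37.6 to 60.1), and 40 of 63 replicate 2 peaks, or 63.5% (50.4 to 75.3). Both shares were below the lowest of the 5 large arms, which was the X with 49.3% in replicate 1 and 70.9% in replicate 2, but the intervals include those values. As sites, 40 of 105 on chromosome 4 were called in both libraries (38.1%, 28.8 to 48.1), 42 in replicate 1 alone and 23 in replicate 2 alone. On the named Het scaffolds the shares were lower: 27 of 112 replicate 1 peaks (24.1%, 16.5 to 33.1) and 26 of 70 replicate 2 peaks (37.1%, 25.9 to 49.5). On U they were lowest, with 2 of 94 replicate 1 peaks (2.13%, 0.259 to 7.48) and 2 of 15 replicate 2 peaks (13.3%, 1.66 to 40.5). The 15 replicate 2 peaks on U limit how many of the 94 replicate 1 peaks could be shared, whatever the agreement. For replicate 2 the interval on U overlaps that on the Het scaffolds. All 68 sites called in both libraries stand in the series list with the same start and end.

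**Figure D1:**
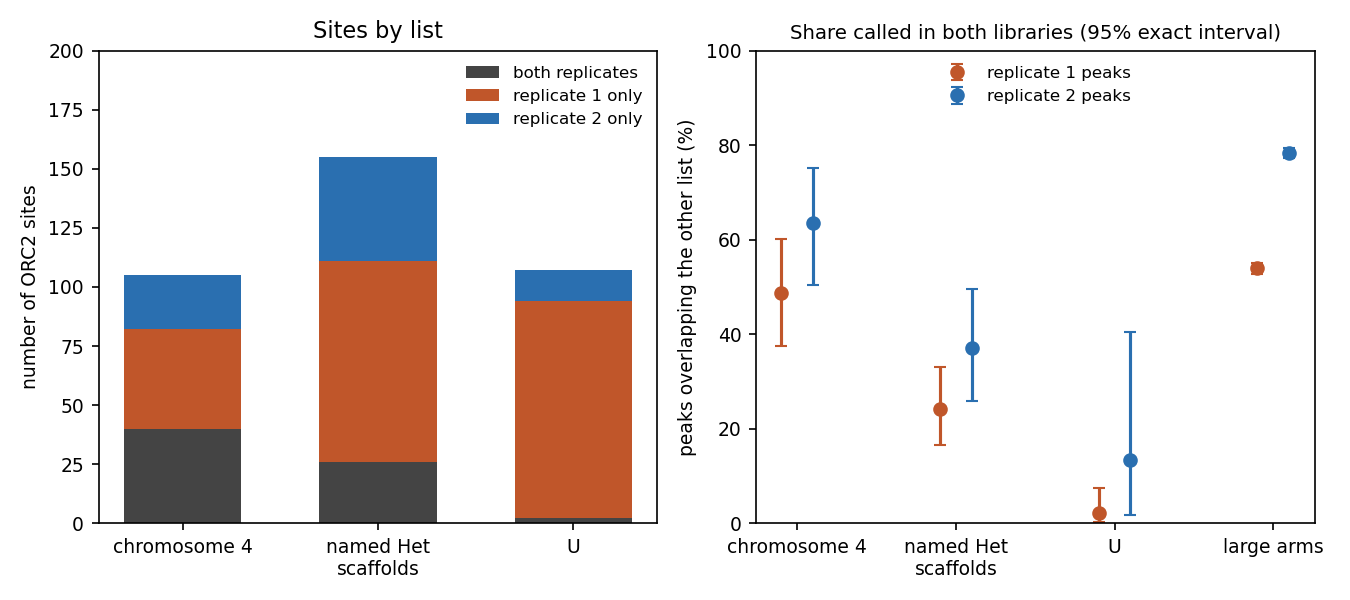
Left, bars give the number of ORC2 sites on chromosome 4, the named Het scaffolds and U, divided by the list or lists that hold them. Right, points give the percentage of the peaks of each list that overlap the other list, with 95% exact intervals as bars. The share falls from the large arms over chromosome 4 (48.8 and 63.5%) and the Het scaffolds (24.1 and 37.1%) to U (2.13 and 13.3%). On U replicate 2 has 15 peaks, which limits the share of the 94 replicate 1 peaks there.

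The libraries placed a similar part of their peaks on chromosome 4 and on the Het scaffolds, but not on U. Chromosome 4 held 0.965% (0.769 to 1.20) of the replicate 1 list and 1.07% (0.821 to 1.36) of the replicate 2 list. The Het scaffolds held 1.32% (1.09 to 1.58) and 1.19% (0.925 to 1.495). U held 1.11% (0.895 to 1.35) of replicate 1 but 0.254% (0.142 to 0.419) of replicate 2. The replicate 1 list was 1.44 times as long as that of replicate 2, and it had 1.30 times as many peaks on chromosome 4, 1.60 times as many on the Het scaffolds and 6.27 times as many on U.

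The sites of chromosome 4 ran from 63601 to 1276241, a span of 1.21 Mb. Peak density over this span was 67.6 per Mb in replicate 1 and 51.95 per Mb in replicate 2 (mean 59.8 ± 11.1, SD, n = 2), where the large arms together had 69.1 and 48.5 per Mb (58.8 ± 14.6, SD, n = 2). The ratio of these densities was 0.978 in replicate 1 and 1.07 in replicate 2, so over the spans the libraries fell on either side of equality. The span leaves out the ends beyond the outermost peaks, such as the sequence before 63601. Such ends can be a larger part of chromosome 4 than of the far longer large arms. Chromosome lengths were not used, so the ratio over full lengths was not determined. The comparison by pieces that follows shares this limit. Cut into 95 pieces as long as the chromosome 4 span, the large arms held a median of 100 sites a piece (quartiles 80 and 111.5, range 32 to 165), beside the 105 of chromosome 4. For sites called in both libraries the median was 47 (quartiles 34.5 and 55, range 5 to 74), beside 40.

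Of the 10 highest-scoring sites called in both libraries, 5 lay at the low-coordinate end of chromosome 4, the side of the centromere, between 64349 and 230896. The 100 kb windows up to 300000 held 6, 1 and 4 of all 40 sites called in both. The limits of this stretch were set by the sites themselves, and a concentration there was not tested. Ordered by the mean of the 2 scores, the leading site was 64349 to 64539, which scored 9.74 in replicate 1 and 11.8 in replicate 2. After it came 230715 to 230896, with 9.74 and 10.2. The third, 76895 to 77211, scored 9.68 and 9.17. These 3 were also the 3 highest of the whole replicate 1 list on this chromosome, and the first and the second bear the same replicate 1 score. At the next pair the libraries differed more. The site at 152692 to 152792 scored 5.35 in replicate 1 and 10.9 in replicate 2, and that at 445364 to 445490 scored 5.70 and 9.70. The site at 717413 to 717594 scored 6.9998 and 7.61. Replicate 2 had the higher score at each of these last 3. The other 4 of the 10 were 200050 to 200196, with replicate scores of 5.23 and 7.16, 887607 to 887866, with 5.58 and 6.31, 1234380 to 1234618, with 5.72 in each, and 1071896 to 1072210, with 4.45 and 6.05.

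The widest shared sites of chromosome 4 were not those with the highest scores. The widest, at 416288 to 417310, measured 1023 bp and scored 3.27 in replicate 1 and 2.37 in replicate 2. The site at 1051999 to 1052586 measured 588 bp and scored 3.36 and 2.39. The site at 422676 to 423192, the nearest shared neighbour of the widest, measured 517 bp and scored 3.33 and 3.06. In each of the 3 the replicate 1 score was the higher and the replicate 1 peak the wider. The other 27 sites called in both had scores of 1.81 to 5.27 in replicate 1 (median 3.07) and 2.01 to 6.36 in replicate 2 (median 3.66), and widths of 48 to 478 bp and 14 to 439 bp. As a description over the 40 sites, which share 2 libraries, the scores of the libraries correlated with a Spearman's rho of 0.774 and, on the log2 scale, a Pearson's r of 0.823.

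In replicate 2 the highest scores of chromosome 4 belonged to peaks that replicate 1 did not call. The peak at 691679 to 691769 scored 35.7, that at 809082 to 809227 scored 25.95 and that at 335455 to 335527 scored 15.3, the 3 highest of 63. They measured 91, 146 and 73 bp, and the second shared the largest width of the unshared replicate 2 peaks of the chromosome with 1133618 to 1133763, which scored 2.82. Of the 5 highest-scoring replicate 2 peaks 1 was shared, and of the 10 highest 4. The order was different in replicate 1, where 4 of the 5 and 8 of the 10 highest were shared. The highest unshared replicate 1 peaks were 1082651 to 1082750 with a score of 6.24, 1161647 to 1161674 with 5.64 and 1150569 to 1150577 with 4.07, which ranked 5, 8 and 18 of 82. The widest unshared replicate 1 peak, at 927798 to 928161, measured 364 bp and scored 2.02. The median score of unshared and shared peaks was 2.30 and 3.41 in replicate 1, and 4.04 and 4.07 in replicate 2.

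**Figure D2:**
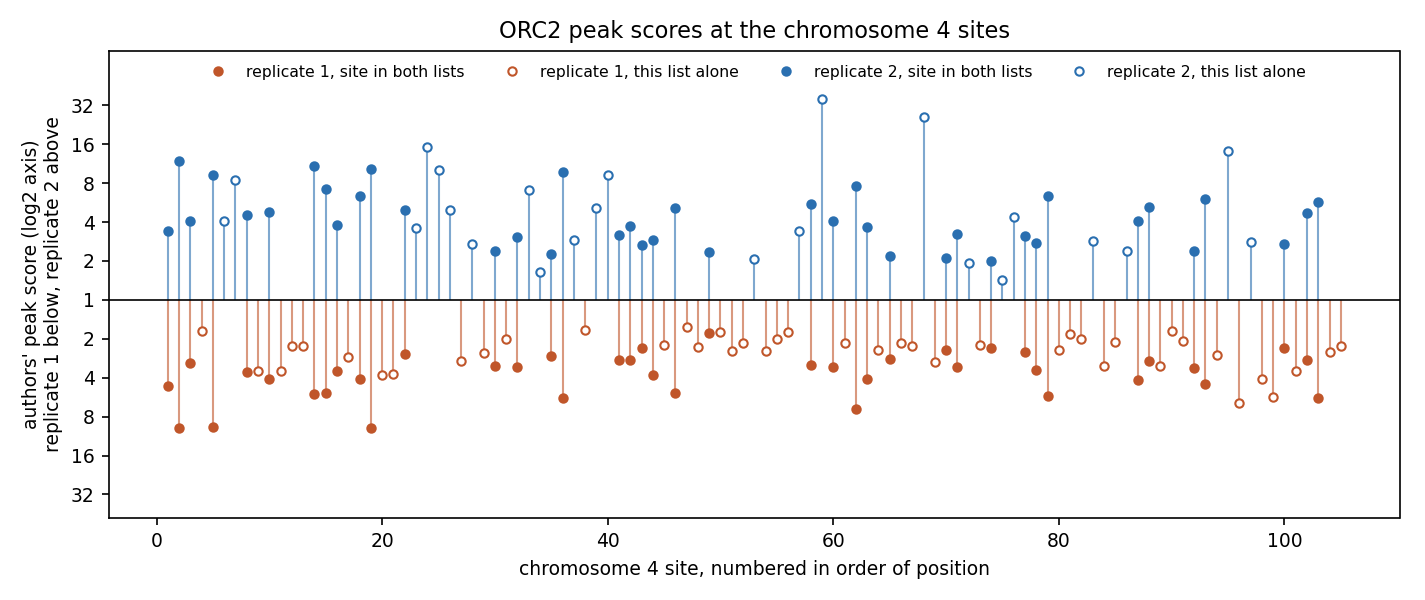
Each position on the x axis is 1 of the 105 chromosome 4 sites, in order along the chromosome. Lines and points give the authors' score on a log2 axis, replicate 2 upwards and replicate 1 downwards, with filled points for sites called in both lists and open points for sites of 1 list. The 3 tallest replicate 2 points (35.7, 25.95 and 15.3) are open, whereas the 3 deepest replicate 1 points (9.74, 9.74 and 9.68) are filled.

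Distances between neighbouring sites of chromosome 4 varied widely, as they did on the large arms. Of these distances 26.0% were within 1 kb, against 29.4% on the large arms. The longest of the 104 was 75.3 kb, against 372 kb among 9427 on the large arms. A maximum over more distances tends to be longer, so these 2 values are not like for like. The median distance between neighbouring sites was 5.60 kb (quartiles 0.894 and 16.2 kb), against 3.77 kb on the large arms (0.743 and 13.1 kb). Within single lists it was 8.07 kb in replicate 1 and 8.74 kb in replicate 2, above the range of the 5 large arms in each list (4.23 to 5.51 kb and 5.99 to 7.85 kb). Between sites, the longest empty stretches were 246616 to 321894 (75.3 kb), 734080 to 798143 (64.1 kb) and 1082751 to 1133617 (50.9 kb); the sequence before the first site, which begins at 63601, is not counted among them. The closest neighbours were 828477 to 828770, called in both, and 828968 to 829007, called in replicate 2 alone, with 197 bp between them. The next were separated by 213 bp, at 680890 to 680941 (replicate 2 alone) and 681155 to 681381 (both), and by 255 bp, at 89904 to 90011 and 90267 to 90365 (replicate 1 alone). Within either list no neighbours lay closer than 200 bp.

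Counted in windows of 100 kb, the densest parts of chromosome 4 were 500001 to 600000 and 800001 to 900000, each with 13 sites of which 6 were called in both libraries. The first window, 1 to 100000, held 12 sites, 6 of them called in both, the first of which began at 63601. The emptiest was the next one, 100001 to 200000, with 2 sites. The window from 900001 to 1000000 had 5 sites, 4 of replicate 1 and 1 of replicate 2, and was the only one of 13 windows with no site called in both.

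On chromosome 4, sites with a close neighbour were called in both libraries in a larger share than the rest, a count made after the values were seen and not tested. Of 45 sites with another site within 1 kb, 23 were called in both (51.1%, 35.8 to 66.3), against 17 of 60 sites without such a neighbour (28.3%, 17.5 to 41.4). On the Het scaffolds the shares were 12 of 47 (25.5%, 13.9 to 40.3) and 14 of 108 (12.96%, 7.27 to 20.8). On U they were 0 of 20 and 2 of 87, and on the large arms 47.1% and 46.4%. With sites joined into runs wherever 5 kb or less lay between them, the longest run of chromosome 4 by number of sites was 416288 to 436349, with 6 sites over 20.1 kb, 3 of them called in both. The run 715902 to 718322 packed 4 sites into 2.42 kb, and 3 of these were called in both. The run 522081 to 529405 also had 4 sites with 3 called in both. The runs 87681 to 90365, 502048 to 510993, 823364 to 833313 and 1047754 to 1052586 had 5 sites each, with 2 called in both. Runs of 3 sites differed: at 63601 to 65638 all 3 were called in both, whereas 397777 to 405997 and 1081169 to 1082750 had 0. Over all chromosome 4 runs of several sites, 31 of 71 sites were called in both (43.7%), against 9 of 34 single sites (26.5%).

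**Figure D3:**
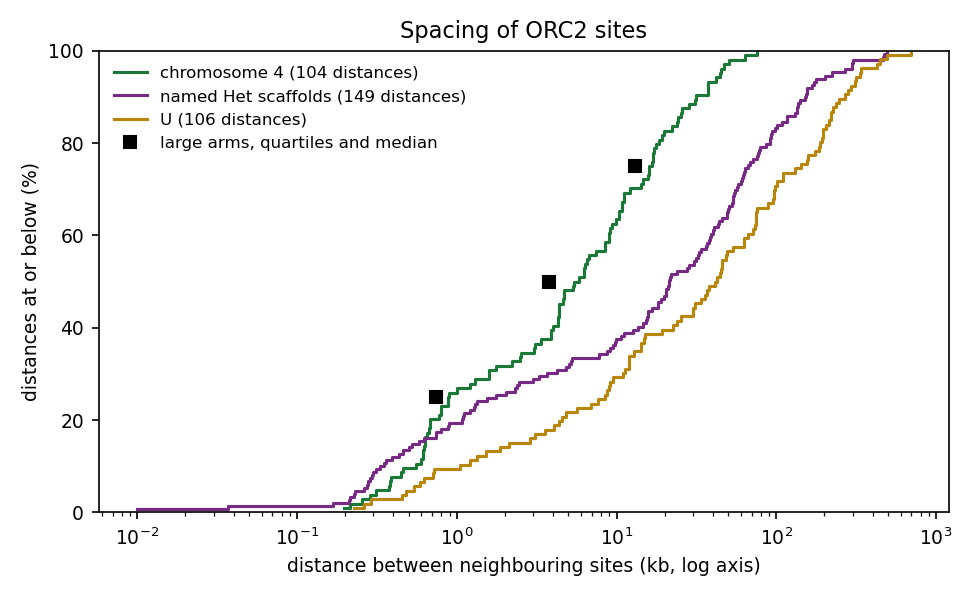
Lines give the cumulative percentage of distances between neighbouring ORC2 sites, in kb on a log axis, for chromosome 4, the named Het scaffolds and U; squares give the quartiles and median of the large arms. The median of chromosome 4 (5.60 kb) is above that of the large arms (3.77 kb), and those of the Het scaffolds (21.4 kb) and U (41.9 kb) lie farther to the right.

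The named Het scaffolds held few sites that both libraries called, and these were spread over 5 of the 6 scaffolds. The number called in both was 12 of 50 sites on 3LHet, 6 of 40 on 3RHet, 5 of 50 on 2RHet, 2 of 9 on 2LHet and 1 of 5 on XHet. The only YHet peak, at 163140 to 163187, was called in replicate 1 alone with a score of 8.99. The median distance between neighbouring Het sites was 21.4 kb (quartiles 1.75 and 66.7 kb), and the longest empty stretches between sites reached 491 kb on 3RHet, 470 kb on 3LHet and 464 kb on 2RHet. By the median over all Het scaffolds, sites thus lay farther apart than on chromosome 4. The exception was 2LHet, with a median of 1.09 kb over 8 distances. How much of the empty stretches reads could be assigned to was not analysed. Even so, 29 of 149 Het distances (19.5%) were within 1 kb, against 27 of 104 on chromosome 4.

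The 3LHet scaffold had the most sites called in both libraries, several of them near its high-coordinate end. Of its 12 such sites, 4 lay between 2396980 and 2409900. The site at 2396980 to 2397295 scored 2.51 in replicate 1 and 1.61 in replicate 2, and that at 2397523 to 2397852 scored 2.39 and 3.31. Farther on, 2399500 to 2399792 scored 1.99 and 1.98, and 2408989 to 2409900 scored 1.92 and 2.60. The last measured 912 bp, the widest shared site of any Het scaffold, through its replicate 2 peak of 912 bp; its replicate 1 peak measured 200 bp. Apart from the replicate 2 score of 3.31, these scores lay below the medians of the scaffold, 2.80 in replicate 1 and 2.78 in replicate 2. By the mean of the 2 scores, the highest shared site on 3LHet was 2190740 to 2190869, with 9.79 and 7.55. Next came 1396742 to 1397057, which scored 5.85 and 4.004, followed by 2383796 to 2383846, which scored 4.75 and 3.63. In all 3 the replicate 1 score was the higher. Of the other 5 shared sites, 207150 to 207325 scored 2.76 and 2.78, and 601419 to 601607 scored 3.38 and 4.07. The site at 715482 to 715683 scored 2.48 and 1.63, that at 1058333 to 1058514 scored 2.62 and 1.85, and that at 2241411 to 2241533 scored 3.19 and 2.16.

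On 3RHet, 4 of the 6 sites called in both libraries lay between 1705921 and 1824196. The highest shared score of all members was here, at 1808469 to 1808591, whose score was 16.04 for replicate 1 and 15.1 for replicate 2; it was the second-ranked replicate 1 peak of the scaffold and the first-ranked of replicate 2. The site at 1824044 to 1824196 scored 4.90 and 5.43, and its neighbour 213 bp away, 1823768 to 1823830, scored 3.86 and 4.09. The site at 1705921 to 1706240, 320 bp wide, scored 4.96 and 3.98. Farther along, 2107132 to 2107342 scored 5.06 and 2.65, and 2378397 to 2378507 scored 2.85 and 5.11. The libraries thus differed in opposite directions at these last 2.

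Of the 5 shared sites of 2RHet, 2 stood as a pair near the high-coordinate end, with 1206 bp between them. The site at 3197909 to 3198025 scored 4.66 in replicate 1 and 4.58 in replicate 2, and that at 3199232 to 3199360 scored 4.74 and 3.67. The site at 471447 to 472263 was the only one of the 68 built from 3 peaks. Its replicate 2 peak of 817 bp scored 4.67 and spanned 2 replicate 1 peaks, which measured 265 and 53 bp and scored 6.04 and 3.39. The remaining sites had lower scores. That at 197476 to 197736 scored 2.95 and 1.67, and that at 2346945 to 2347113 scored 1.89 and 1.81. Replicate 1 scored higher at each of the 5, with the mean of the pair of replicate 1 peaks taken at 471447 to 472263.

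On 2LHet the shared sites were unlike each other. The site at 169136 to 169192 was 57 bp wide and scored 9.12 in replicate 1 and 9.49 in replicate 2. The site at 187595 to 188287 was 693 bp wide and scored 1.32 and 1.16, the lowest scores of all members in either list. On XHet the shared site, 76285 to 76448, scored 4.73 and 4.89, and its peaks overlapped by 24 bp. The other XHet peaks were 7129 to 7228 with 3.31, 61062 to 61143 with 2.87 and 85553 to 85616 with 4.28 in replicate 1, and 71100 to 71134 with 2.70 in replicate 2. Across the 26 Het sites called in both, which lie on 5 scaffolds, the scores correlated with a rho of 0.752 and, on the log2 scale, an r of 0.877, given as a description. Within scaffolds rho was 0.657 over the 12 sites of 3LHet and 0.0286 over the 6 sites of 3RHet. The r on the log2 scale was 0.809 and 0.761. The 3RHet sites include 1808469 to 1808591, which scored far above the rest in both libraries.

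**Figure D4:**
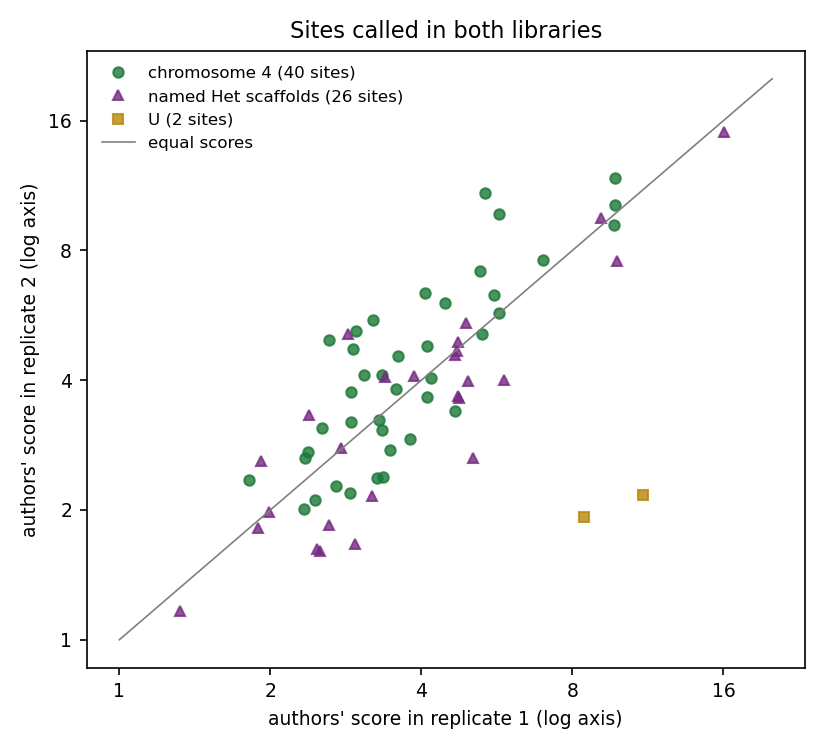
Each point is 1 of the 68 sites called in both libraries, placed by the authors' score in replicate 1 (x axis) and replicate 2 (y axis), both log axes, with the line of equal scores. Chromosome 4 and Het sites lie along the line, up to the 3RHet site at 16.04 and 15.1, and the U sites lie below it, at 11.1 and 2.17 and at 8.45 and 1.93.

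Most Het peaks were unshared, and the highest-scoring ones were no exception. In replicate 1 the unshared peaks with the highest scores were all on 3RHet, at 1707338 to 1707354 with 21.4, at 1462657 to 1462658 with 11.6 and at 1338337 to 1338411 with 11.3. They measured 17, 2 and 75 bp. In replicate 2 they were 390895 to 390932 on 2RHet with 27.2, 1621691 to 1621789 on 2RHet with 21.1 and 459503 to 459580 on 3LHet with 18.5. None of these 6 was wider than 99 bp. Of the 10 highest Het scores 3 were shared in replicate 1 and 2 in replicate 2, beside 24.1% and 37.1% of all Het peaks. The widest unshared peaks of the 2 libraries stood side by side on 3RHet. The replicate 2 peak at 789234 to 790222 measured 989 bp and scored 1.34, and the replicate 1 peak at 790536 to 791089 measured 554 bp and scored 1.46, without overlap.

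On U the 2 libraries had hardly a site in common. Of 107 sites, 92 were called in replicate 1 alone, 13 in replicate 2 alone and 2 in both. The shared sites were 86.3 kb apart. The first, at 7457966 to 7458210, scored 11.1 in replicate 1 and 2.17 in replicate 2, which ranked 6 of 94 and 13 of 15. The second, at 7544520 to 7545055, scored 8.45 and 1.93, which ranked 15 of 94 and 14 of 15. Both were thus among the higher replicate 1 scores and the lowest replicate 2 scores of U. They were wide, with peaks of 245 and 471 bp in replicate 1 and 174 and 536 bp in replicate 2, where the median over U was 96 and 34 bp.

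The most extreme values of both lists included peaks on U. The peak at 3436363 to 3436457 scored 224.6, the highest of all 8494 replicate 1 peaks, the next of which scored 29.1. In replicate 2, 9093360 to 9093387 scored 120.0, second of 5905 after a peak on X with 643.7. These orders across chromosomes only list the values. Neither of the 2 U peaks was called in the other library, nor was that on X. The next unshared scores on U were 20.8 at 129244 to 129269 and 18.2 at both 1253919 to 1254017 and 9068022 to 9068025 in replicate 1, and 15.4 at 1178723 to 1178838 and 8.86 at 1166671 to 1166704 in replicate 2. The widest peak of any list, 15002 bp, was the replicate 2 peak at 5288446 to 5303447 with a score of 1.43, the lowest of the 15. It made up 92.4% of the 16240 bp that replicate 2 peaks covered on U; the other 14 covered 1238 bp. The widest replicate 1 peak on U, 3896562 to 3897340, measured 779 bp and was not shared.

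Peaks of chromosome 4 were somewhat wider than those of the large arms, and Het peaks somewhat narrower. The median replicate 1 width on chromosome 4 was 122.5 bp, with quartiles at 76.3 and 241 bp, and the median replicate 2 width was 120.0 bp, with quartiles at 62.5 and 212 bp. Both were above the 5 large arms, whose medians ran from 100 to 109 bp and from 93 to 102 bp. On the Het scaffolds the medians were 82.5 bp (39 and 113.5 bp) and 84.5 bp (35.3 and 137 bp), below the large arms in both lists. On U the libraries parted, with 96 bp (51 and 147 bp) in replicate 1 and 34 bp (23.5 and 106.5 bp) in replicate 2. Peaks of 30 bp or less made up 9.76% and 14.3% of the chromosome 4 peaks, 19.6% and 21.4% of the Het peaks, and 15.96% and 46.7% of the U peaks. On the large arms they made up 14.7% and 17.7%.

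In each class, peaks called in both libraries were wider than the rest. On chromosome 4 the median width of shared and unshared peaks was 185 against 89 bp for replicate 1 and 179.5 against 52 bp for replicate 2. On the Het scaffolds it was 111 against 69 bp for replicate 1 and 134 against 48 bp for replicate 2. On U the unshared medians were 96 and 29 bp, beside the 4 shared peaks given above. Wider peaks meet a peak of the other list more easily, so part of this is built in. The order of the classes was the same among wide peaks. Of peaks over 100 bp, 36 of 50 on chromosome 4 were shared in replicate 1 (72.0%, 57.5 to 83.8) and 32 of 38 in replicate 2 (84.2%, 68.7 to 94.0). On the Het scaffolds 16 of 34 (47.1%, 29.8 to 64.9) and 17 of 27 (63.0%, 42.4 to 80.6) were shared, and on U 2 of 34 (5.88%, 0.720 to 19.7) and 2 of 4 (50%, 6.76 to 93.2). On the large arms the shares were 81.8% and 96.3%.

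**Figure D5:**
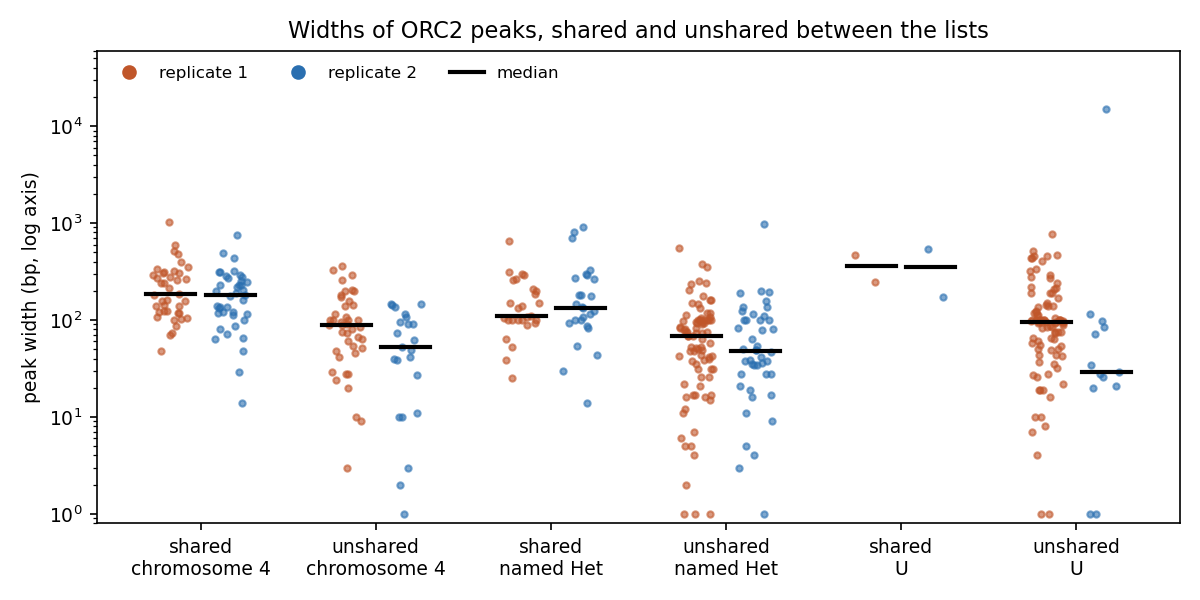
Points are single ORC2 peaks, placed by width in bp on a log axis, for shared and unshared peaks of chromosome 4, the named Het scaffolds and U; black bars are medians. Shared peaks have the larger median in each class and library, for example 185 against 89 bp on chromosome 4 in replicate 1, and the highest point is the replicate 2 peak of 15002 bp on U.

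At sites called in both libraries the midpoints of the calls lay close together, which the required overlap partly fixes. The median distance between the midpoints of the 2 calls was 16.5 bp on chromosome 4 (at most 110 bp) and 24.8 bp on the Het scaffolds (at most 82 bp), against 19 bp on the large arms. The relative extent of the calls differed. The replicate 1 call was the wider at 75.1% (73.7 to 76.3) of shared sites on the large arms, but at 23 of 40 on chromosome 4 (57.5%, 40.9 to 73.0) and 10 of 26 on the Het scaffolds (38.5%, 20.2 to 59.4). Replicate 2 had the higher score at 25 of 40 sites on chromosome 4 (62.5%, 45.8 to 77.3) and 9 of 26 on the Het scaffolds (34.6%, 17.2 to 55.7). On the large arms that share ran from 31.96% on 3L to 54.2% on 3R, so it varied between arms as well.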

How the data were processed

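The authors deposited 1 peak list for each of the 2 ORC2 ChIP libraries and 1 for the series. Their caller was PeakSeq, per the source column of the files, and the genome was FlyBase release 5, per the file headers. The sources used here give no aligner, threshold, read depth or role of the input library. The deposited rows hold each peak's position and 1 score by the authors, whose quantity is unnamed. Shared peaks are those with at least 1 bp in common with the other list. A distance is the number of bases between neighbours. Density was taken over the span between the outermost peaks. Named sites followed a rule: all shared sites on Het scaffolds and U, the 10 highest-scoring and 3 widest on chromosome 4, and in each class and list the 3 highest-scoring and the widest unshared peak. All XHet and YHet peaks, 3 shortest and 3 longest distances and extreme 100 kb windows of chromosome 4 were added by it. The regions, the rule and the alternatives were chosen with earlier results of these data known. Runs within 5 kb, the split at 1 kb, the pieces of the large arms, the width classes, the repeated scores and the groups of sites described within a scaffold were chosen after the values were seen. The code recovered every planted site of simulated lists in which no site held more than 1 peak per list. Sites built from several peaks of a list were not part of that check. Python 3.11.15, numpy 2.4.6, pandas 2.3.3, scipy 1.17.1 and matplotlib 3.10.9 were used.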

Additional observations from a re-analysis of the deposited data

How the results depend on the processing

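No test was made, so no call could change. Requiring a reciprocal overlap of 50% lowered the shared percentage of replicate 1 and replicate 2 peaks to 35.4 and 46.0 on chromosome 4 and to 13.4 and 21.4 on the Het scaffolds, with 15 Het sites in both. With peaks of at least 50 bp, 51.2% of replicate 2 Het peaks were shared and 95 Het sites remained to be counted; chromosome 4 then had a density ratio of 1.10 to the large arms, a median distance of 9157 bp (1.17 times that of the large arms) and 1.09% of the lists, and the Het scaffolds 1.06%. With peaks at or above the median score of their list, 61.0% of replicate 1 peaks on chromosome 4 were shared, 59 sites and 25 sites in both were counted there, 87 and 13 on the Het scaffolds, and on U no peak was shared (0% of each list, 0 sites). Chromosome 4 then had 34.6 peaks per Mb (ratio 1.23), a median distance of 13933 bp (ratio 1.01) and 1.21% of the lists, and the Het scaffolds 1.37%. This setting cuts all chromosomes at 1 score per list, 2.92 in replicate 1 and 3.04 in replicate 2. Whether chromosomes share a score scale was not tested, so these values may partly reflect the scale. Both shared U peaks of replicate 2 scored below the cut (2.17 and 1.93), which fixed the U result in advance. The series list gave 33.0 peaks per Mb on chromosome 4 (ratio 0.888), a median distance of 11256 bp (ratio 1.15), and shares of 0.893% on chromosome 4, 0.581% on Het scaffolds and 0.0447% on U, by its construction from shared peaks. Merging peaks within 1000 bp gave 46.6 per Mb and 12147 bp. Each list alone gave 63 to 82 sites on chromosome 4, 70 to 112 on Het scaffolds and 15 to 94 on U; for chromosome 4, 51.95 to 67.6 peaks per Mb (ratio 0.978 to 1.07) and distances of 8068 to 8744.5 bp (ratio 1.26 to 1.70); and list shares of 0.965 to 1.07%, 1.19 to 1.32% and 0.254 to 1.11%. Over the span between the outermost peaks, the density ratio therefore lay on both sides of 1. In all these settings where both lists gave a value, the shared percentages kept the order chromosome 4, Het scaffolds, U. The cause of the other shifts was not tested. No paired analysis was possible because the input library has no peak list here and the ORC2 libraries form 1 group. Unknown depth limits what the few U peaks of replicate 2 can show.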

Other observations

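Peaks of exactly 100 bp were frequent on the Het scaffolds, which was noticed after the values were seen and not tested. They numbered 12 of 112 in replicate 1 (10.7%) and 5 of 70 in replicate 2 (7.14%), against 2.60% and 2.21% on the large arms, 2 of 82 and 0 of 63 on chromosome 4, and 5 of 94 and 0 of 15 on U.

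Some unshared peaks lay close to a call of the other library without meeting it. On chromosome 4, 12 of 42 unshared replicate 1 peaks (28.6%, 15.7 to 44.6) and 4 of 23 unshared replicate 2 peaks (17.4%, 4.95 to 38.8) were within 1 kb of a peak of the other list. On the Het scaffolds these were 14 of 85 (16.5%, 9.31 to 26.1) and 14 of 44 (31.8%, 18.6 to 47.6), and on U 1 of 92 and 1 of 13. On the large arms the shares were 32.7% and 51.0%. The closest such pair of members was on 2RHet, where the replicate 2 peak at 3233851 to 3233931 ended 10 bp before the replicate 1 peak at 3233942 to 3233989.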
